A study of Amia calva with 36 samples.

Results

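The bowfin (Amia calva) is a ray-finned fish that breathes air with a gas bladder, an outgrowth of the dorsal foregut wall. Ventral foregut mesoderm is the sheet of connective and muscle precursors under the gut tube; in tetrapods, signals from the corresponding tissue pattern the epithelium from which lungs grow, whereas in bowfin the air-filled organ forms on the opposite side.

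RNA was sequenced from bowfin embryos, raised at 12.8 °C from eggs taken from wild nests, at Ballard stage 24 (just before the gas bladder buds), stage 25 (budding) and stage 27 (outgrowth). Dorsal and ventral mesoderm and dorsal and ventral endoderm, the epithelial lining, were cut by laser from transverse sections of 15 µm, and the RNA was amplified before sequencing. Each of the 12 combinations of side, layer and stage had 3 libraries, 36 in all. No embryo carried a transgene or received a treatment according to the labels. The labels do not say whether libraries came from separate embryos, and the p-values therefore cover library-to-library spread alone, part of which may be technical.

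The early ventral mesoderm genes were chosen from the deposited table of log2 CPM (CPM is the reads of a gene scaled to a common library total). A gene counted as read where its value exceeded 0.88, which in every library was the same as at least 1 read. A gene was kept if it had a spotted gar (a related fish) ortholog, reads in at least 5 of the 6 ventral mesoderm libraries of stages 24 and 25, in at most 1 of the 6 dorsal mesoderm libraries of those stages and in at least 3 of the 12 stage 27 libraries. Of 21948 bowfin genes, 11428 had a gar identifier, and 7 of these met the rule, so the limit of 100 genes was not reached. They are AMCG00007629 (ENSLOCG00000014158), AMCG00008047 (ENSLOCG00000005910), AMCG00019538 (ENSLOCG00000012876), AMCG00003047 (ENSLOCG00000003776), AMCG00015483 (ENSLOCG00000001394), AMCG00007205 (ENSLOCG00000000618) and AMCG00016553 (ENSLOCG00000004070), where the second identifier is the gar ortholog. Because no gene names accompany the identifiers, no function is given, and the captured layers could not be checked against cell type markers.

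Libraries held 3040 to 1998280 reads assigned to genes (median 1030874). The lowest total belongs to ventral endoderm of stage 24, replicate 3, and each other library had at least 377516 reads, so the absence of a gene from that library carries little information. Early libraries read few genes: 1625 to 3697 genes with a gar identifier in early ventral mesoderm and 2347 to 4567 in early dorsal mesoderm, against 5276 to 8024 at stage 27. Each stage also had its own run of library numbers, so stage and any difference between those runs cannot be told apart. In captured tissue, fewer cells of a type and less RNA per cell cannot be told apart either.

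**Figure D1:**
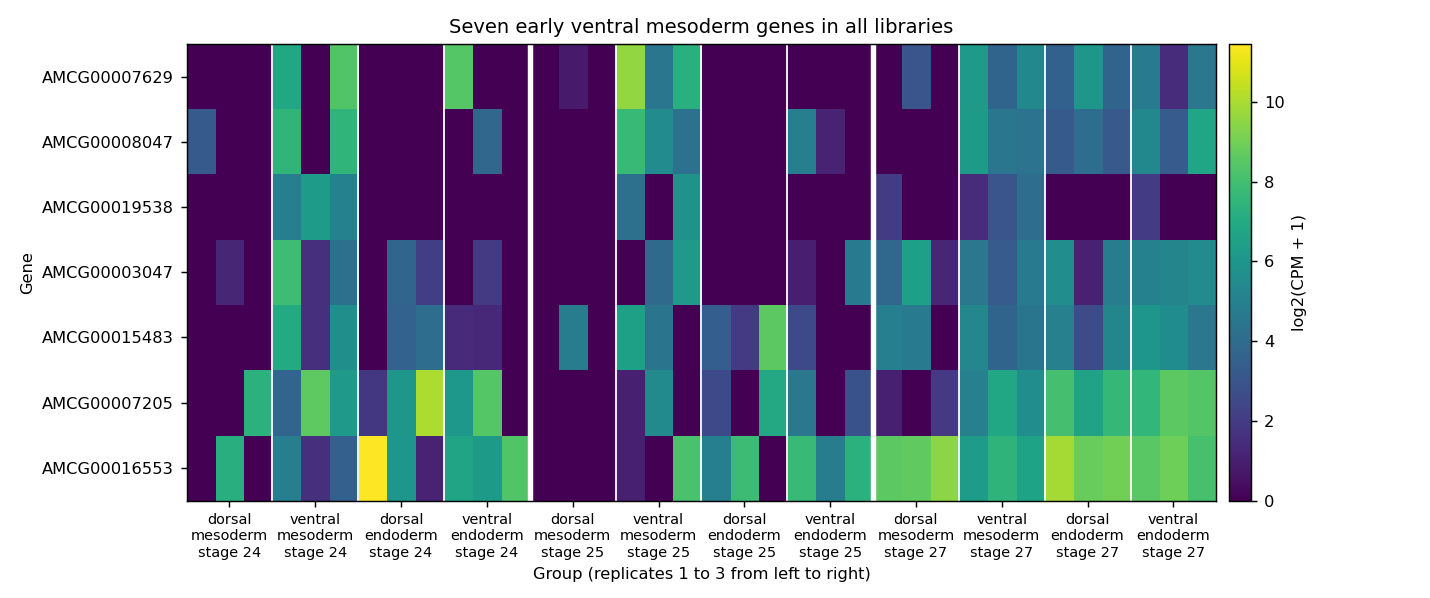
Levels of the 7 genes (rows) in all 36 libraries (columns, grouped by stage, layer and side), coloured by log2(CPM + 1). Early dorsal mesoderm is nearly empty, and all 7 rows are filled in stage 27 ventral mesoderm. AMCG00015483, AMCG00007205 and AMCG00016553 are read in 8, 9 and 11 of the 12 early endoderm libraries.

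The early mesoderm values are what chose the genes, so they are given as a description. Each of the 7 genes was read in exactly 5 of the 6 early ventral mesoderm libraries, and none in all 6. AMCG00019538 had no read in early dorsal mesoderm, and each of the other 6 genes was read in 1 dorsal library. Mean log2 CPM was higher ventrally by 1.58 to 5.29, with a median of 3.20. Over all 14132 genes tested, limma called 0.0354% in this contrast, a share from which nothing follows about genes that the contrast itself selected.

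AMCG00007629 had the largest difference and the highest ventral mean of the 7 genes. Its ventral values were 114, 0 and 321 CPM at stage 24 and 785, 21.6 and 152 CPM at stage 25. Its dorsal values were 0 in 5 libraries and 0.765 CPM, a single read, in replicate 2 of stage 25. The ventral libraries thus spread from no read to 783 reads, while dorsal mesoderm was all but empty.

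AMCG00008047 read 182, 0 and 181 CPM in the ventral libraries of stage 24 and 213, 45.6 and 18.6 CPM in those of stage 25. In dorsal mesoderm it had 8.62 CPM, from 13 reads, in replicate 1 of stage 24 and no read in the other 5 libraries. Replicate 2 of stage 24 ventral mesoderm was the library without a read for this gene and for AMCG00007629 alike. That library held 512370 reads over all genes, and 1663 genes with a gar identifier were read in it.

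AMCG00019538 was read in all 3 ventral libraries of stage 24. It read 28.5, 76.1 and 32 CPM at stage 24 and 18.1, 0 and 58.4 CPM at stage 25, and nothing in the 6 dorsal libraries. Its ventral mean of 35.5 ± 27.6 CPM (SD, n = 6) was 85.3 times a floor of 3 counts over the dorsal reads (0.416 CPM). The rule chose the gene on these values, so the ratio is a description and not a lower limit. Amplified reads are not independent molecules, so the floor covers counting error only.

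AMCG00003047 read 239, 1.95 and 17.9 CPM at stage 24 and 0, 14.7 and 71.1 CPM at stage 25, against 1 read (1.34 CPM) in a single dorsal library. AMCG00015483 read 128, 1.95 and 51.1 CPM at stage 24 and 91.3, 20.1 and 0 CPM at stage 25, against 26.8 CPM in replicate 2 of stage 25 dorsal mesoderm. For these 2 genes the value of 1.95 CPM in replicate 2 of stage 24 is 1 read, so their place in the list rests on that read.

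AMCG00007205 and AMCG00016553 had the smallest differences, and their dorsal exceptions were not small. AMCG00007205 read 12.5, 386 and 73.3 CPM at stage 24 and 1, 43.3 and 0 CPM at stage 25, and 164 CPM in replicate 3 of stage 24 dorsal mesoderm, more than in all but 1 ventral library. AMCG00016553 read 28.5, 1.95 and 10.5 CPM at stage 24 and 1, 0 and 288 CPM at stage 25, and 143 CPM in replicate 2 of stage 24 dorsal mesoderm. A single ventral library held 87.3% of its summed early ventral CPM, and 2 of its 5 reading libraries had 1 read each. Its place in the list therefore rests on those reads. For AMCG00007205 the value of 1 CPM in replicate 1 of stage 25 is 1 read, and its place rests on that read too. The ventral to dorsal ratio of means was 2.30 for AMCG00016553 and 3.15 for AMCG00007205.

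The edges of the rule lie close to its members. Among genes with a gar identifier and the stage 27 condition, 28 were read in at least 5 ventral libraries and in exactly 2 dorsal ones, with differences of 0.19 to 5.77 on the log2 scale. Another 34 were read in exactly 4 ventral and at most 1 dorsal library, with differences of 0.09 to 4.15. The largest differences in these sets were those of AMCG00002607 (5.77, with 5 ventral and 2 dorsal libraries) and AMCG00016888 (4.15, with 4 ventral and 1 dorsal libraries). Both differ more than most of the 7, but they were picked as the largest. The medians of the sets were 2.39 and 2.11, against 3.20 for the 7 genes. The stage 27 condition removed no gene.

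The same rule with the sides exchanged kept 66 genes, against 7 for the ventral side. Early dorsal mesoderm libraries read 28.2% of the genes with a gar identifier on average and early ventral mesoderm libraries 23%. With the libraries thinned to 377516 reads (all but the library of 3040 reads, which the rule does not use), the counts were 81 and 14. The part of detection in this imbalance was not tested.

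Detection of the 7 genes was then followed through the libraries. Early ventral mesoderm libraries read 5 to 7 of them and early dorsal mesoderm libraries 0 to 2. The rule sets the number of libraries per gene and not of genes per library. High counts ventrally and low ones dorsally still follow from it. In the endoderm of stages 24 and 25, which the rule did not use, libraries read 1 to 5 of the 7, with a median of 3: 40.5% of all gene and library pairs in dorsal endoderm and 47.6% in ventral endoderm, where 24.5% and 24.4% of all genes with a gar identifier were read. At stage 27, every ventral mesoderm library read all 7, dorsal mesoderm libraries read 3, 4 and 5, dorsal endoderm libraries 6 each and ventral endoderm libraries 6 or 7. As shares of gene and library pairs these were 57.1% in dorsal mesoderm, close to the 56.9% of all genes with a gar identifier read there, 100% against 64.7% in ventral mesoderm, 85.7% against 58.1% in dorsal endoderm and 90.5% against 57.3% in ventral endoderm. The rule kept genes read in most early ventral mesoderm libraries, so shares above those of all genes can follow in part from the choice. A closer set is the 935 genes with a gar identifier and the stage 27 condition, read in at least 5 of those libraries. Their medians were 10 of 12 early endoderm and 12 of 12 stage 27 libraries, against 5 and 11 for the 7 genes. That set has no limit on dorsal reads, and the difference was not tested. The stage 27 dorsal mesoderm libraries held 723011 to 1133036 reads and the ventral ones 1418444 to 1757712. Thinned to 377516 reads, the mean number read at stage 27 was 3.33 in dorsal and 7 in ventral mesoderm, against 4 and 7 without thinning.

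**Figure D2:**
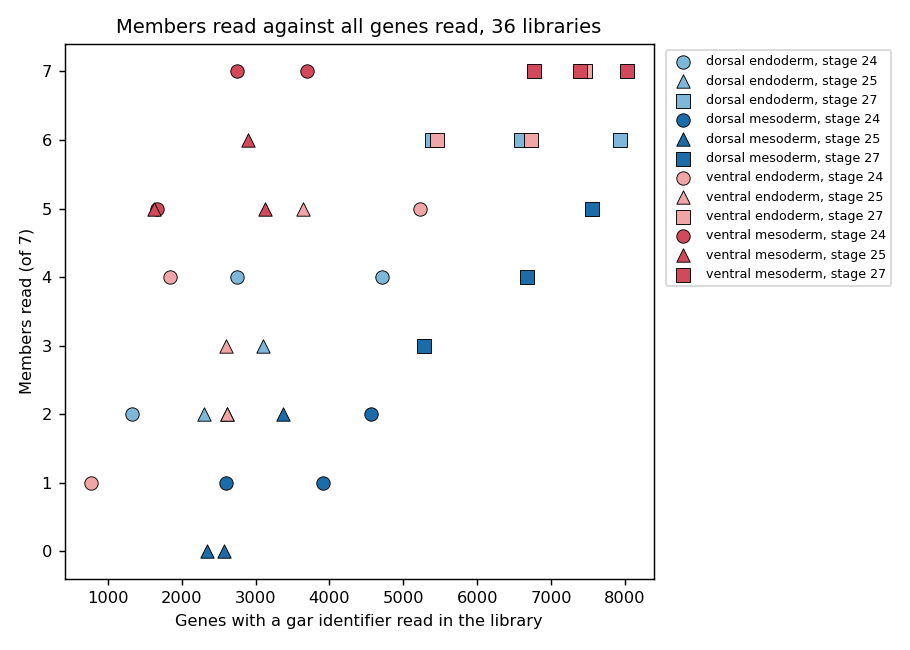
Number of the 7 genes read in each library (vertical axis) against the number of genes with a gar identifier read there (horizontal axis); colours give side and layer, symbols the stage. Early ventral mesoderm libraries read 5 to 7 of the 7 genes at 1625 to 3697 genes read in all, and early dorsal mesoderm libraries 0 to 2 at 2347 to 4567.

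Early endoderm separated the genes, a grouping made after the values were seen. AMCG00019538 had no read in any of the 12 early endoderm libraries, whose floor is 0.29 CPM. AMCG00007629 was read in 1 of the 12, replicate 1 of stage 24 ventral endoderm, at 343 CPM (223 reads), which is above 5 of the 6 early ventral mesoderm values. AMCG00008047 was read in 3 of the 12, all ventral, at 12.8, 28.8 and 1.18 CPM, and in none of the 6 dorsal libraries. For AMCG00007629 and AMCG00008047 these few libraries were all ventral.

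The other 4 genes were read in 5 to 11 of the 12 early endoderm libraries. AMCG00003047 was read in 5, with at most 26.5 CPM. AMCG00015483 was read in 8, with at most 381 CPM, and AMCG00007205 in 9, with at most 1070 CPM in replicate 3 of stage 24 dorsal endoderm. AMCG00016553 was read in 11, with a median of 89.2 CPM and a highest value of 2816 CPM in replicate 1 of stage 24 dorsal endoderm. For AMCG00016553 the mean over early endoderm, 337 CPM, exceeded that over early ventral mesoderm, 55 CPM, and it was still 112 CPM without its highest endoderm library. The label of early ventral mesoderm genes therefore describes this gene only against dorsal mesoderm, and there mainly by the number of libraries with a read. Its means in ventral and dorsal mesoderm were 13.6 and 47.8 CPM at stage 24. At stage 25 they were 96.3 and 0 CPM, where the ventral mean rests on the library at 288 CPM. For AMCG00007205 the early endoderm mean was 142 CPM, and 58 CPM without the library of 1070 CPM, a comparison made after the values were seen. The early ventral mesoderm mean of 86.1 CPM lay between these values. That mean was not trimmed in the same way, and a single library, at 386 CPM, held 74.8% of its summed CPM. The order of the means is therefore not settled. The medians were 14.2 CPM in endoderm and 27.9 CPM in ventral mesoderm. Among the 935 genes with a gar identifier that were read in at least 5 early ventral mesoderm libraries and met the stage 27 condition, 19 (2.03%) were read in at most 3 early endoderm libraries, against 3 of the 7 chosen genes and 23 of the 66 genes of the exchanged rule (34.8%). Over all 14132 genes tested, many of them read in few early libraries of any kind, the share was 56.4%, and no test of these differences was made.

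Ventral and dorsal endoderm of stages 24 and 25 were compared to ask whether the side difference of the mesoderm is also present in the epithelium. With limma, 0 of the 7 genes passed (adjusted p under 0.05, Benjamini-Hochberg over 14132 genes; all 7 genes passed the filter on low values), and 0% of all genes were called (619 had an unadjusted p under 0.05, 1 of them among the 7). The median log2 difference of the 7 genes, ventral minus dorsal, was 0.24, against 0 over all genes. AMCG00015483 had the smallest p and was lower ventrally, with 0 to 4.80 CPM in 6 ventral libraries and 0 to 381 CPM in 6 dorsal ones (log2 difference -2.37, SE 1.17, limma adjusted p = 1). Without replicate 3 of stage 25 dorsal endoderm, the library at 381 CPM, the difference was -1.42. The groups overlapped, as they did for all 7 genes; over all genes they did not overlap for 0.0142% (ventral higher) and 0.00708% (ventral lower). AMCG00008047 had a log2 difference of 1.30 (SE 1.03, limma adjusted p = 1), with at most 28.8 CPM ventrally and no read dorsally, and one of 0.68 without the library at 28.8 CPM. Limma voom, which models the recovered reads, called 2 of the 7 genes higher ventrally, AMCG00008047 and AMCG00007629 (adjusted p = 0.0295 and 0.0438), where it called 7.09% of all genes. Without the library of 3040 reads it called 0 of the 7 and 0.0495% of all genes.

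Ventral and dorsal mesoderm at stage 27 were compared to ask whether the early side difference was still there during outgrowth. The rule counted stage 27 libraries with a read and not their side, so the direction at stage 27 was free to differ. Of the genes, 6 had a higher mean log2 CPM ventrally and 1 had a lower one, and with limma none passed the test, where 1.2% of all genes were called. Among the 7, 3 had an unadjusted p under 0.05 (1040 of the 14132 genes). The median log2 difference was 1.71, against 0.19 over all genes. Values of the 3 ventral libraries lay above those of the 3 dorsal libraries without overlap for 3 of the genes, where 7.22% of all tested genes did so, and below them for 1 gene, where 4.3% did. Limma voom called none of the 7, with or without the library of 3040 reads. Of all 14132 genes it called 5 with that library and 22 without it. Its count of 0 therefore says little about the 7 genes.

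AMCG00008047 read 75.1, 21.7 and 19.7 CPM in stage 27 ventral mesoderm and had no read in the 3 dorsal libraries. The groups did not overlap, and the ventral mean of 38.8 ± 31.4 CPM (SD, n = 3) was 37.2 times a floor of 3 counts over the dorsal reads. That floor covers counting error only, and the ratio leaves out the spread of the ventral libraries. The log2 difference was 4.21 (SE 1.46), with the smallest p of the 7 genes, yet it did not pass (limma adjusted p = 0.231). AMCG00007205 read 30.7, 114 and 47.9 CPM ventrally and 0.981, 0 and 2.77 CPM, 3 reads in all, dorsally. The groups did not overlap here either, and the log2 difference of 4.32 (SE 1.96) did not pass (limma adjusted p = 0.565).

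AMCG00007629 read 69.4, 12.1 and 40.2 CPM ventrally and 0, 7.06 and 0 CPM dorsally at stage 27. Its ventral libraries were all above the dorsal ones, at a ratio of means of 17.2 and a log2 difference of 3.48 (SE 1.65, limma adjusted p = 0.621). AMCG00019538 read 1.71, 7.01 and 16.2 CPM ventrally and 2.94, 0 and 0 CPM dorsally, so its groups overlapped and its level was low on either side. AMCG00003047 and AMCG00015483 overlapped throughout, at 8.93 to 26.1 and 12.1 to 38.7 CPM ventrally and 1.38 to 86.5 and 0 to 29.4 CPM dorsally. For AMCG00003047 the mean of log2 CPM was higher ventrally (0.24, SE 1.50) while the mean CPM was higher dorsally (33.9 against 19.1 CPM).

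AMCG00016553 stood the other way round at stage 27. It read 375, 410 and 715 CPM in dorsal mesoderm and 76.8, 175 and 98 CPM in ventral mesoderm. Every dorsal library was above every ventral one, and the dorsal mean of 500.1 ± 187 CPM was 4.29 times the ventral mean of 117 ± 51.5 CPM (SD, n = 3 each). The log2 difference of -2.11 (SE 1.97) did not pass with limma (adjusted p = 1). The SE comes from all 36 libraries, among which this gene ranged from 0 to 2816 CPM. With limma on only the groups compared, the SE was 0.428 and the difference still did not pass (adjusted p = 0.468). That setting called 0 genes of all those tested.

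**Figure D3:**
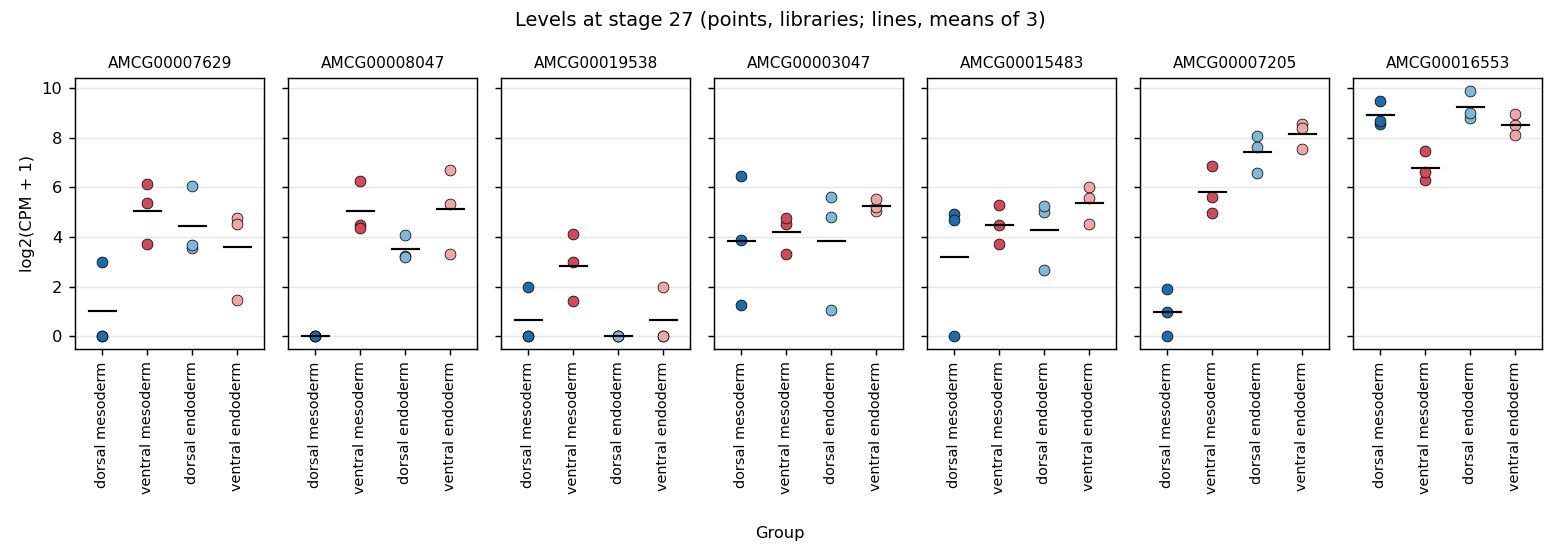
Levels at stage 27 as log2(CPM + 1), 1 panel per gene and 4 groups per panel; points are libraries and lines are means of 3. Ventral mesoderm lies above dorsal mesoderm without overlap for AMCG00007629, AMCG00008047 and AMCG00007205, and below it for AMCG00016553.

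Ventral and dorsal endoderm at stage 27 showed no such separation. With limma, 0 of the 7 genes passed, where 0.34% of all genes were called, none of the 7 had an unadjusted p under 0.05 (798 of all genes had), and the groups of all 7 genes overlapped, where 2.96% (ventral higher) and 4.17% (ventral lower) of all genes did not. The median log2 difference, ventral minus dorsal, was 0.73, against 0 over all genes. AMCG00008047 read 39.5, 8.86 and 104 CPM ventrally and 8.35, 16 and 8.30 CPM dorsally (log2 difference 1.56, SE 1.46, limma adjusted p = 1), and the difference was 0.78 without the library at 104 CPM. AMCG00003047 was at 32 to 45.6 CPM ventrally and 1.07 to 47.5 CPM dorsally (log2 difference 1.29, SE 1.50, limma adjusted p = 1). That difference rests on replicate 2 of dorsal endoderm, at 1.07 CPM, and was 0.06 without it. The side difference of mesoderm was set against that of endoderm in the same limma fit, a comparison added after the values were seen. None of the 7 passed, where 0.382% of all genes did; the largest, for AMCG00007629, was 4.24 on the log2 scale (SE 2.34, adjusted p = 0.902). A side difference limited to mesoderm at stage 27 is thus not shown for any of them.

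Endoderm and mesoderm at stage 27 were compared over both sides. Of the genes, 6 had a higher mean log2 CPM in endoderm and 1, AMCG00019538, in mesoderm. With limma none passed, where 8.53% of all genes were called, and 1 of the 7 had an unadjusted p under 0.05 (2647 of all genes). The median log2 difference, endoderm minus mesoderm, was 0.85, against -0.03 over all genes. AMCG00007205 read 271, 96.3 and 199 CPM in dorsal and 189, 379 and 332 CPM in ventral endoderm, against 0 to 2.77 CPM in dorsal and 30.7 to 114 CPM in ventral mesoderm. A single mesoderm library, with 114 CPM, lay above the lowest endoderm library. Layers overlapped for all 7 genes, where 1.86% (endoderm higher) and 2.97% (endoderm lower) of all genes did not. The log2 difference was 4.13 (SE 1.39) and lay just outside the threshold (limma adjusted p = 0.0544). It passed without the library of 3040 reads (adjusted p = 0.0409) and with the 12 stage 27 libraries alone (adjusted p = 0.000193).

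AMCG00019538 was read in the fewest libraries of the 7. At stage 27 it was read in 3 of 3 ventral and 1 of 3 dorsal mesoderm libraries, 1 of 3 ventral endoderm libraries at 3 CPM, and 0 of 3 dorsal endoderm libraries (endoderm minus mesoderm -1.08 on the log2 scale, SE 0.61, limma adjusted p = 0.37). Over all 36 libraries it was read in 10, of which 8 were ventral mesoderm. Of these 8, 5 were early libraries in which the rule required reads, so this total follows in part from the choice.

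Stages 24 and 25 of ventral mesoderm are set side by side as a description only. The rule required a read in at least 5 of these same 6 libraries, which limits how far the stages can differ, so no test is given for the 7 genes. Over all genes limma called 0%, with 898 at an unadjusted p under 0.05, and the stages did not overlap for 1.13% (stage 25 higher) and 1.49% (stage 25 lower); they overlapped for all 7 genes, from which nothing is read. AMCG00019538 had a mean of 45.5 ± 26.5 CPM at stage 24 and 25.5 ± 29.9 CPM at stage 25 (SD, n = 3 each). Its log2 difference, stage 25 minus 24, was -1.73, and ranged from -2.84 to -0.32 when single libraries were left out, with the value nearest 0 without replicate 2 of stage 25, which had no read. AMCG00007205 had means of 157 ± 201 and 14.8 ± 24.7 CPM, and its log2 difference of -3.60 ranged from -5.03 to -2.41.

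**Figure D4:**
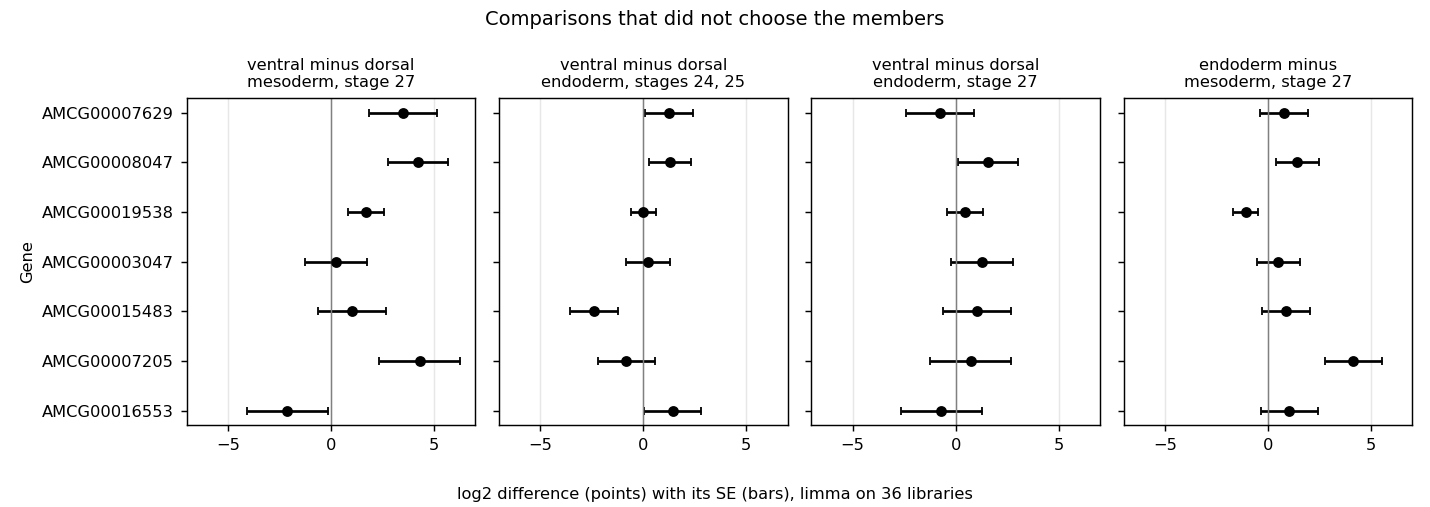
Log2 differences of the 7 genes (points) with their SE (bars) from limma on 36 libraries, in the 4 planned comparisons whose libraries did not choose the genes by side or layer. AMCG00007205 has the largest positive values, in mesoderm sides and layers at stage 27, and 0 of the 7 genes passed the threshold in each comparison.

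The 12 groups were ordered by mean CPM as a description. Early ventral mesoderm stands high and early dorsal mesoderm low in part because the rule chose the genes on these groups. The top groups were stage 25 and stage 24 ventral mesoderm for AMCG00007629 (320 ± 408 and 145 ± 163 CPM), stage 24 and stage 25 ventral mesoderm for AMCG00008047 (121 ± 105 and 92.3 ± 105 CPM), and the 3 ventral mesoderm groups in order of stage for AMCG00019538 (45.5 ± 26.5, 25.5 ± 29.9 and 8.31 ± 7.34 CPM; SD, n = 3 for each group). AMCG00003047 was highest in stage 24 ventral mesoderm at 86.2 ± 132 CPM. AMCG00015483 was highest in stage 25 dorsal endoderm at 131 ± 216 CPM, AMCG00007205 in stage 24 dorsal endoderm at 380 ± 599 CPM, and AMCG00016553 in the same group at 961 ± 1607 CPM. Of the 11 pairs of neighbouring groups, libraries overlapped in all 11 for 5 of the genes and in 10 for AMCG00008047 and AMCG00016553. Groups without any read counted as overlapping. Most of these orders are therefore not resolved beyond the spread between libraries. The separate pair of AMCG00008047 was stage 27 ventral mesoderm above stage 27 dorsal endoderm. For AMCG00016553 it was stage 24 ventral above stage 25 dorsal mesoderm, groups that the rule used, so nothing is read from it. The share of such pairs over all genes was not computed.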

How the data were processed

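The submitters' processing notes name Trimmomatic 0.38, STAR 2.6, edgeR and R 3.6.0; the genome build and counting tool are not given in the sources used here. The authors deposited log2 CPM values for 21948 genes in 36 libraries. Their shared smallest value, 0.8747, is what a prior count of 2 gives, and from this relation CPM and whole reads were recovered; below 200 reads, 100% of the values were whole within 0.02. The trended moderated test of limma 3.58.1 (R 4.3.3) was run on the deposited values with 1 mean per group and all 36 libraries. It covered the 14132 genes that exceeded 1 CPM in 3 libraries or more, with Benjamini-Hochberg adjustment across all of them and a threshold of 0.05. Log2 differences include the prior count, which understates changes of low genes.

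The genes, comparisons and alternatives were chosen with earlier results of these data known. The rule for named genes took, per comparison, the 2 members with the smallest p where none passed; all 7 are described because the list is short. Gene lists and cell type markers written by symbol matched no identifier and gave no result. On simulated data with equal spread the test held its threshold. Reads were also simulated from the group means and library depths, with a fixed spread for all genes. On these reads the test found large changes with the right sign. Most of its calls were of unchanged genes, far more than the threshold allows. The simulation did not copy which libraries lack reads of a gene, so its error rates need not hold for these data. Replicate numbers were not treated as pairs. Depth ran from 3040 to 1998280 reads, and floors and ratios cover counting error only. No column was left unmapped and 0 pairs of libraries were identical. Figures were drawn with matplotlib 3.10.9 in Python 3.11.15.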

Additional observations from a re-analysis of the deposited data

How the results depend on the processing

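The list itself depends on how a read is counted. It held 13 genes, the 7 among them, when a CPM over 1 was required, 14 genes, 4 of the 7 among them, in 1 random thinning to 377516 reads, and 0 genes when reads in 6 of 6 ventral and 0 of 6 dorsal libraries were required. Leaving out each early mesoderm library in turn gave 9 to 29 genes, which included the 7 each time because the rule was loosened with it. When thinned, the mean number of the 7 genes read per library fell from 6 to 5.67 in stage 27 dorsal endoderm, where the SD was 0, and from 5.33 to 4.67 in stage 25 ventral mesoderm, where it was 0.577.

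In 123 of 131 recomputed counts, 0 of the 7 genes were called. Between the early endoderm sides, leaving out single libraries gave 0 to 3 called genes among all those tested. With only the groups compared, the stage 27 sides of mesoderm and of endoderm each had 0. A count of 0 of the 7 in such settings says little about these genes. Of the 131, 19 are for stage 25 against 24 in ventral mesoderm, all at 0. Nothing is read from these 19, since the rule used those libraries. For endoderm against mesoderm at stage 27 the count was 1, AMCG00007205 each time, with log2(CPM + 5), quantile normalization, library weights, only the groups compared, and limma voom, whether or not the library of 3040 reads was included; single libraries left out gave 0 to 1. Its adjusted p ranged from 0.000193 to 0.117. For ventral against dorsal endoderm at stages 24 and 25, limma voom called 2. Of 300 recomputed values for 14 single-gene results, none changed direction. These 14 were picked for the smallest p or for groups that did not overlap, so differences near 0 were not among them. The 300 values include 19 values each of AMCG00019538 and AMCG00007205 for stage 25 against 24, which are a description only. Adjusted p at stage 27 between the sides of mesoderm ranged from 0.0674 to 1 for AMCG00008047. Quantile normalization moved the median of all genes in that comparison from 0.19 to -0.01. Counts over all genes there, 170 by limma, ranged from 0 to 318; for stage 27 endoderm sides, 48 by limma, from 0 to 109; for stage 27 layers, 1206 by limma, from 355 to 1460. For early endoderm sides and for stage 25 against 24, 0 by limma, they reached 1002 and 86. The interaction added later gave 0 to 134, and 54 by limma. Deviations of same-numbered libraries from their group means had correlations of -0.11 to 0.21 over 54 pairs. The 2 above 0.1 were both between dorsal and ventral endoderm of stage 24 (0.107 for replicate 1 and 0.211 for replicate 2). With the replicate block 0 of the 7 genes were called in each comparison, where stage 25 against 24 is again limited by the rule. Of all genes, the block called 154 between the stage 27 mesoderm sides and 37 between the stage 27 endoderm sides. It called 1218 between the stage 27 layers and 40 for the interaction. Between the early endoderm sides and for stage 25 against 24 it called 0. The causes were not tested.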

Other observations

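Among genes without a gar identifier, 4 met the rest of the rule. AMCG00018454 was read in 6 of 6 early ventral and 1 of 6 early dorsal mesoderm libraries, which none of the 7 genes with a gar identifier achieved. It averaged 16 ± 18.9 CPM ventrally (SD, n = 6) and 0.111 CPM dorsally. In stage 27 mesoderm AMCG00018454 was low, at 0.638 to 4.55 CPM ventrally and 0 to 7.94 CPM dorsally, and the sides overlapped. AMCG00002513 averaged 588 ± 1243 CPM in early ventral mesoderm and 2.93 CPM in early dorsal mesoderm; at stage 27 it was at 833 to 1745 CPM ventrally and 364 to 986 CPM dorsally, so the sides overlapped.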
